A study of Mus musculus with 8 samples.

Results

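The genes described here belong to the purinergic and adenosine pathway, through which T cells read and clear ATP, NAD and adenosine outside the cell. They were measured in sorted effector CD8 T cells called PD-1hi, which are defined by abundant surface PD-1, an inhibitory receptor. The set has 10 genes, chosen by name: Entpd1, Nt5e, Adora2a, Adora2b, Cd38, Ada, Dpp4, P2rx7, P2rx4 and Slc29a1. A row with exactly 1 gene symbol was found for 7 of them, out of 22180 genes with such a row in the whole table. Adora2a, Adora2b and Cd38 had none and were not analysed here, so the statements below cover CD39 (Entpd1) but not CD38 or those adenosine receptors.

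Cells of mice injected intraperitoneally with an antibody that blocks the interleukin 10 receptor (anti-IL-10R, 4 arrays) were compared with cells of mice injected with the isotype control antibody (4 arrays). All animals were female mice labelled C56BL/6 (C57BL/6 in the protocol text), and both groups carried chronic lymphocytic leukaemia (CLL) cells of the Eµ-TCL1 line, a transgenic mouse model of this B cell cancer, so the control arrays come from leukaemic hosts as well. Antibody was given from week 3 after transplantation for 2 weeks, and at week 5 the spleens were sorted for lineage-negative, T cell receptor beta-positive, CD8-positive, CD127-low, CD44 intermediate to high and PD-1-high cells. Nothing in the labels ties the arrays to separate animals, and the p-values therefore measure only the spread between these arrays.

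As background, ATP released by stressed or dying cells opens P2X channels on T cells and is broken down to AMP by the ectoenzyme CD39 and from AMP to adenosine by CD73. Adenosine acting on its Gs-coupled receptors raises cyclic AMP in T cells and dampens signals of the T cell receptor, and it is cleared by uptake, by phosphorylation and by deamination to inosine. CD38 opens a parallel route, in which NAD is the source. CD39 on CD8 T cells is known as a surface mark of chronically stimulated, exhausted cells, and regulatory T cells, B cells and myeloid cells carry it too.

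Of the whole set, Entpd1 was the gene that passed the test, and the promoter windows of its annotated starts are shown for that reason. RefSeq, on GRCm38.p6, gives Entpd1 more than 1 start on the plus strand of chromosome 19. Each window runs from 250 bases before to 50 bases after a start. The capitals mark the letters CGTCA, the reverse complement of TGACG, which is only a part of the cAMP response element TGACGTCA.
Entpd1 chr19:40612116-40612415: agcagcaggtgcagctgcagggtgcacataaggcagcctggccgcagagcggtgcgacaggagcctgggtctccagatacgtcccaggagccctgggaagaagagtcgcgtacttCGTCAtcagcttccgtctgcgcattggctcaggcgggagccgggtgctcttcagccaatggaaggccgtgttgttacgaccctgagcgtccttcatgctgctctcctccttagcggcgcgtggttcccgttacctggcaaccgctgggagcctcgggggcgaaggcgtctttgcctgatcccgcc
Entpd1 chr19:40659520-40659819: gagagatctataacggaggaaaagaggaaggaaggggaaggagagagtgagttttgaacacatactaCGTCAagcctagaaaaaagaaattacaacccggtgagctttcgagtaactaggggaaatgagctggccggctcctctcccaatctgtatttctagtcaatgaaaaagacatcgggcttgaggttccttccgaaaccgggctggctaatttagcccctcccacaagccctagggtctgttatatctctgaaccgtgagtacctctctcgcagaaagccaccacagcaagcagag
Both windows held 1 match to TGACG, on the minus strand, beginning at base 116 of the first window and base 68 of the second. The letters TGACG occurred on either strand in 20.8% of the 32851 promoter windows of the same length, so a match is common. Neither window held the full element TGACGTCA (1.79% of all windows), the STAT site TTCNNNGAA (8.3%) or the MAF recognition core TGCTGA (19.5%), searched on both strands; TGACG lies within TGACGTCA. Among the 18 windows of the 9 set members that have one, the STAT site occurred in 1, the window of Ada. These matches describe letters in a window, and binding was not measured.

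The unit throughout is the authors' log2 signal of a transcript cluster, and levels of different genes cannot be compared because their probes differ. Differences are anti-IL-10R minus isotype from limma, with a standard error (SE) and a p-value adjusted by the Benjamini-Hochberg method over all 12019 genes whose mean reached 5.24, the median row mean of the table. A gene was called at an adjusted p below 0.05, and 2.53% of the tested genes were called in either direction, 1.23% higher and 1.3% lower. Of the set, 4 genes reached that limit (Entpd1, Dpp4, Slc29a1 and P2rx4) and 1 of them was called. Nt5e, Ada and P2rx7 lay under it, and their values come from the same test on all 22180 genes without the limit, where 0.654% were called. The groups did not overlap for 2 of the 7 genes, Entpd1 (higher) and Ada (lower), beside 10.3% of all 22180 genes. With 4 arrays against 4, the smallest two-sided exact permutation p is 0.0286.

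The arrays had medians of 5.19 to 5.31 over all rows. Isotype replicate 1 stood apart. Across the tested genes, which are not independent replicates, its correlation with the other arrays was 0.915 to 0.929, against 0.962 to 0.986 among the other 7. Each result of the set is therefore given with that array, and also without it where the call or the size moves. Without it, 9.25% of the tested genes were called, so a pass in that fit is less rare than in the fit of all 8 arrays. The sort genes Cd3e (12.60 ± 0.02 in anti-IL-10R and 12.33 ± 0.10 in isotype arrays, SD, n = 4 each) and Cd8a (11.12 ± 0.02 and 10.81 ± 0.08) had high signals in both groups, and Il7r, which encodes CD127, lay under the limit for dim genes. Pdcd1, which encodes PD-1, was 11.45 ± 0.09 in anti-IL-10R and 10.95 ± 0.40 in isotype arrays, lowest in isotype replicate 1 (10.34). It differed by 0.50 ± 0.19 (SE) and did not pass (limma adjusted p = 0.177). For Cd3e, Cd8a and Pdcd1 all anti-IL-10R arrays were above all isotype arrays.

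**Figure D1:**
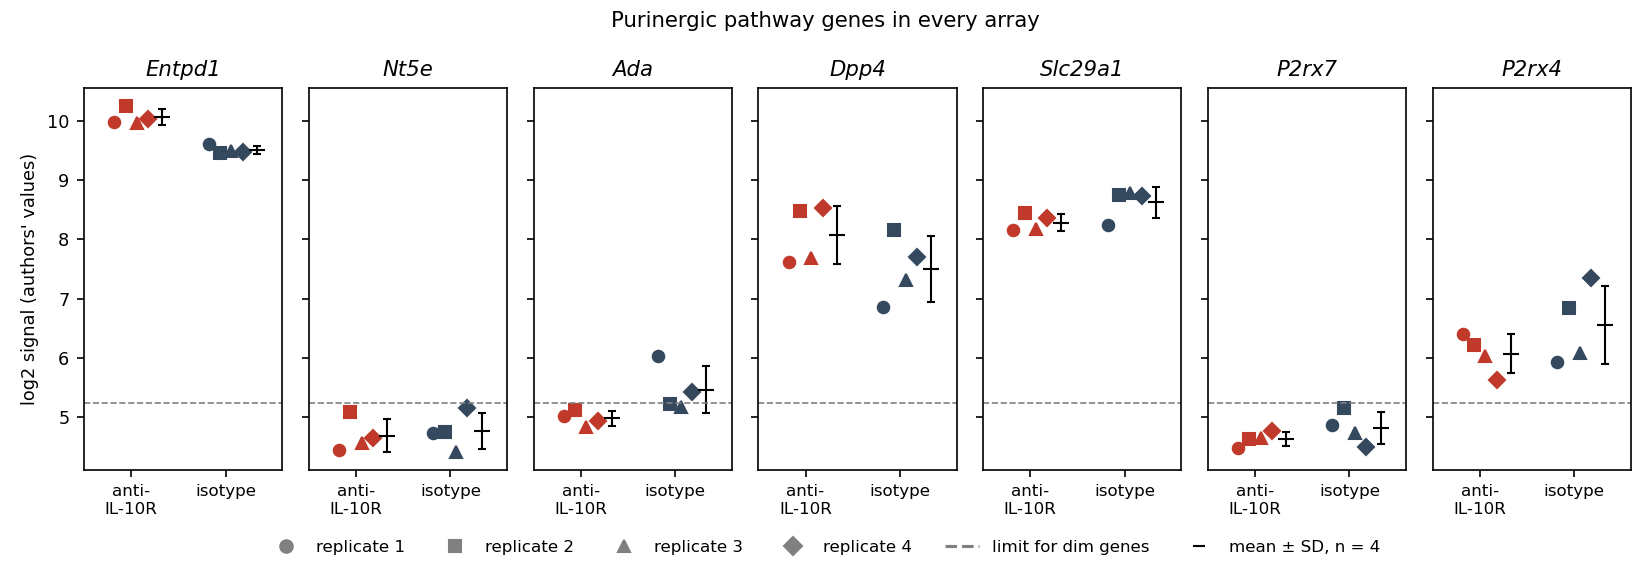
Log2 signal of each measured gene (vertical axis) in the 4 anti-IL-10R arrays (red, left) and the 4 isotype arrays (dark, right), with marker shape for the replicate number, a bar for the mean and SD, and a dashed line at the limit for dim genes, 5.24. The anti-IL-10R arrays of Entpd1 lie at 9.96 to 10.26, above all isotype arrays, and heights should be compared within a gene only.

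Entpd1 encodes CD39, which removes phosphates from extracellular ATP and ADP. Its signal was 9.99, 10.26, 9.96 and 10.03 in the anti-IL-10R arrays and 9.61, 9.45, 9.48 and 9.48 in the isotype arrays. All 4 anti-IL-10R arrays were higher than any isotype array, anti-IL-10R replicate 2 was the highest of its group, and isotype replicate 1 was the highest of the controls. Entpd1 rose to 10.06 ± 0.13 in anti-IL-10R arrays, against 9.51 ± 0.07 in isotype arrays (SD, n = 4 each). The difference was 0.55 ± 0.11 (SE), a 1.47-fold change with a 95% confidence interval of 1.24 to 1.73 (limma adjusted p = 0.0371). By its p-value Entpd1 was number 160 of the 12019 tested genes, and by the size of the difference number 959.

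The size of the Entpd1 difference was steadier than its call. With 1 array left out it ranged from 0.49 to 0.59. The adjusted p was 0.0117 without isotype replicate 1, but it lay between 0.0789 and 0.112 when any one of the other 7 arrays was left out, so the call ended in each of those 7 fits. With all arrays kept, the call also ended in the fit without the limit for dim genes (limma adjusted p 0.0556).

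**Figure D2:**
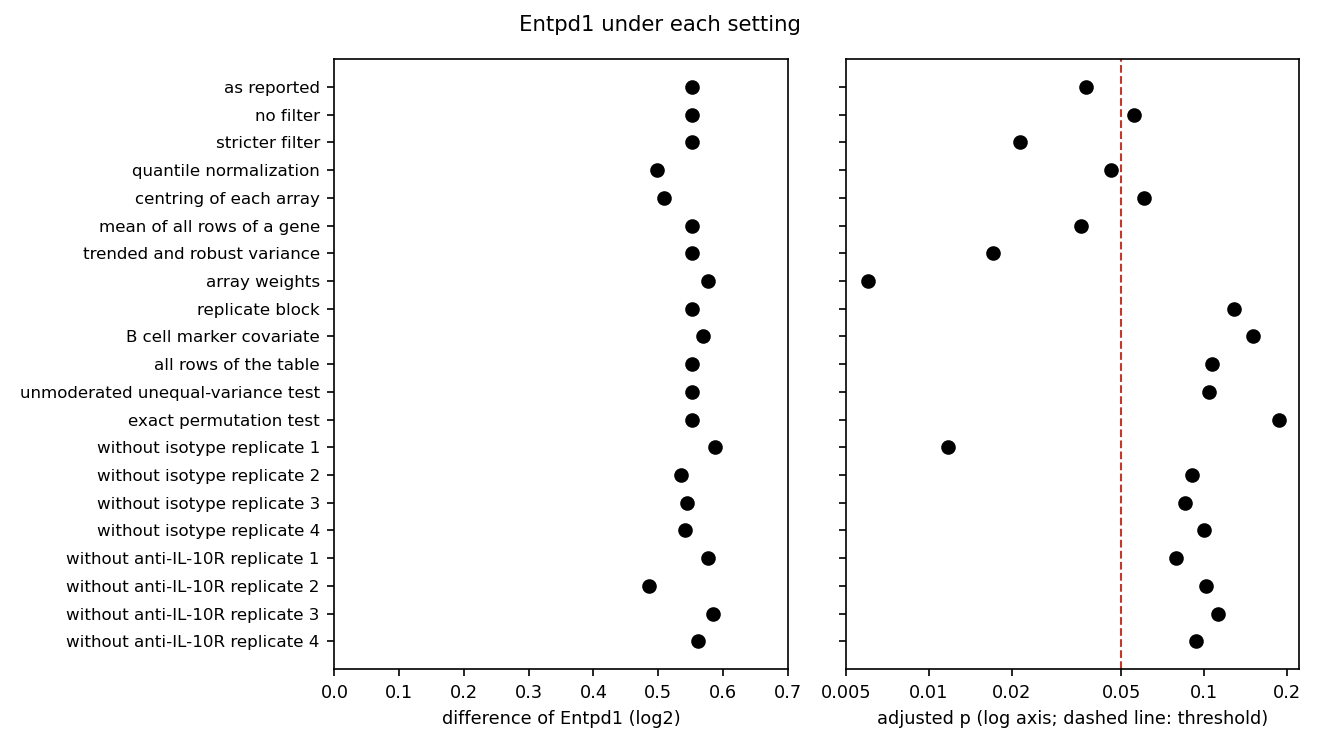
Difference of Entpd1, anti-IL-10R minus isotype in log2 units (left), and its adjusted p on a log axis with the threshold as a dashed line (right), for the values as reported and for each alternative setting. The differences stay between 0.49 and 0.59, while the adjusted p lies above the threshold of 0.05 in 13 of 19 alternatives and in the exact permutation test, which could call no gene here.

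CD39 is not particular to CD8 T cells, so cell type markers are given beside it. The 8 genes of the CD8 T cell and sort list had a mean of 10.25 to 10.39 in anti-IL-10R arrays and 9.96 to 10.12 in isotype arrays, 8 of 8 were higher, and 0 passed limma's test over all genes (5 at an unadjusted p under 0.05). An unadjusted p under 0.05 was found for 14.1% of all 22180 genes and for 20% of the 12019 tested genes, and 46.5% and 54.7% of them had a higher mean in anti-IL-10R arrays. Of the 11 measured B cell markers, 1 was higher in anti-IL-10R arrays and 0 passed limma's test over all genes (0 at an unadjusted p under 0.05; adjusted p 0.393 for Ms4a1, the smallest of the list). Their mean was 4.83 to 5.00 in anti-IL-10R arrays and 4.84 to 5.45 in isotype arrays, and 4 of the 11 reached the limit for dim genes, the defining factor Pax5 not among them. Foxp3, the defining factor of regulatory T cells, was 5.24, 5.35, 5.08 and 5.64 in anti-IL-10R arrays and 7.97, 5.46, 5.95 and 5.62 in isotype arrays. The array with the high Foxp3 value, isotype replicate 1, was also the control with the most Entpd1 signal. Cd4 lay under the limit for dim genes in the mean of all arrays. The 4 genes of the CD4 and regulatory T cell list had a mean of 5.08 to 5.38 in anti-IL-10R arrays and 5.15 to 5.94 in isotype arrays. Of these 4 genes, 2 were higher and did not follow Foxp3. Zbtb7b, the other gene of the list above the limit, was among them (0.21, limma adjusted p = 0.39). The 7 measured macrophage and monocyte markers had a mean of 5.52 to 5.68 in anti-IL-10R arrays and 5.43 to 5.99 in isotype arrays, with 4 of 7 higher and the defining receptor Csf1r under the limit. Some markers of other lists had higher means beside Entpd1 and did not pass. In the dendritic cell list 3 of 5 were higher, with a mean of 5.03 to 5.36 in anti-IL-10R arrays and 5.06 to 5.10 in isotype arrays. Among them were the factors Zbtb46 (0.38, limma adjusted p = 0.189) and Batf3 (0.31, adjusted p = 0.25). Their isotype means, 5.15 and 5.19, lay under the limit for dim genes, so both were tested only because of the anti-IL-10R arrays. The receptors Xcr1 (-0.14, adjusted p = 0.514) and Flt3 (-0.14, under the limit) were lower. In the endothelial list 1 of 4 was higher, the adhesion receptor Pecam1, which leukocytes carry too. It was 7.74, 7.64, 7.73 and 7.72 in anti-IL-10R arrays and 6.01, 7.42, 7.58 and 7.05 in isotype arrays. Its groups did not overlap (0.69 ± 0.29, SE, adjusted p = 0.229), and the list's mean was 5.46 to 5.71 in anti-IL-10R arrays and 5.41 to 5.61 in isotype arrays. In the natural killer cell list 3 of 4 were higher, with Eomes, a factor that effector CD8 T cells express as well, at 0.26 (adjusted p = 0.229) and Ncr1 and Klrb1c under the limit. With each array's B cell marker mean in the fit, the Entpd1 difference was 0.57 ± 0.14 (SE) and the call ended (limma adjusted p = 0.151). That fit called only 3 of the 12019 tested genes, against 304 as reported, so the ended call says little about Entpd1. Without isotype replicate 1 the Entpd1 difference was 0.59. The part of other cells in the result was not tested beyond these values. In sorted pools, fewer cells of a type and less RNA per cell cannot be told apart.

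**Figure D3:**
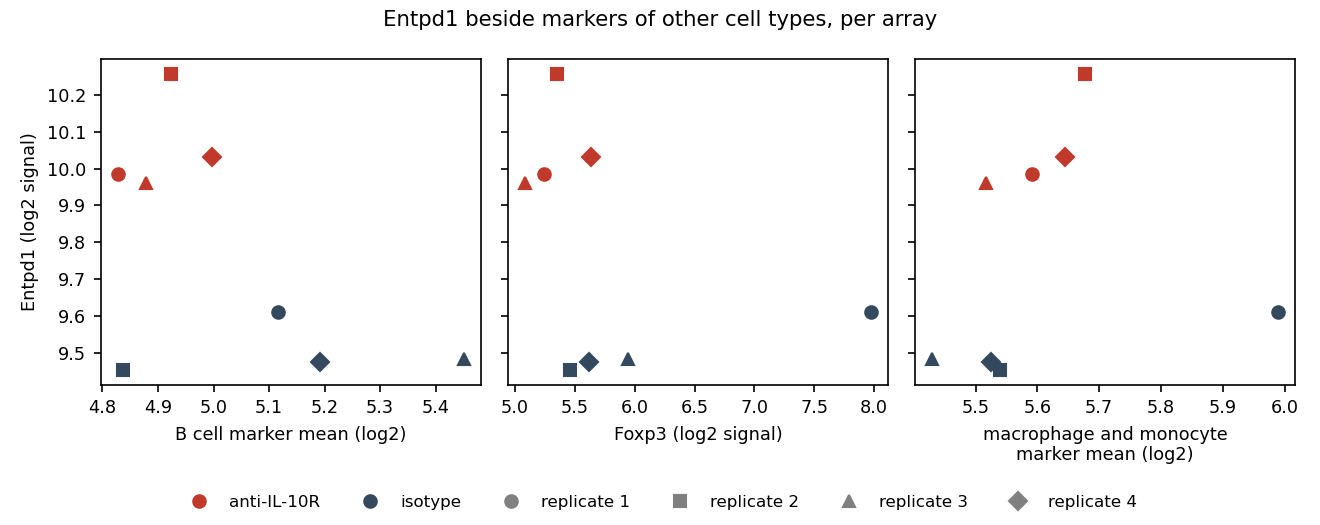
Entpd1 log2 signal (vertical axis) against the B cell marker mean, the Foxp3 signal and the macrophage and monocyte marker mean (horizontal axes, log2), 1 point per array, red for anti-IL-10R and dark for isotype, with marker shape for the replicate number. The anti-IL-10R arrays have the higher Entpd1 at B cell marker means of 4.83 to 5.00, and isotype replicate 1 lies far to the right for Foxp3 at 7.97.

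Nt5e encodes CD73, which turns AMP into adenosine. It was dim in every array, with 4.45, 5.09, 4.56 and 4.66 in the anti-IL-10R arrays and 4.74, 4.75, 4.41 and 5.15 in the isotype arrays. Each value lay under the limit for dim genes, and the groups overlapped. The difference was -0.07 ± 0.18 (SE), with a 95% confidence interval of -0.48 to 0.33 (limma adjusted p = 0.891 over all genes). Its sign turned without isotype replicate 4 (0.05) and without anti-IL-10R replicate 1 (0.0052). No difference of Nt5e was detectable at this signal.

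Among the genes that clear adenosine, Ada and Slc29a1 had lower means in the anti-IL-10R arrays and did not pass. Ada encodes adenosine deaminase, which converts adenosine to inosine. It was 5.03, 5.13, 4.84 and 4.94 in anti-IL-10R arrays and 6.03, 5.23, 5.18 and 5.43 in isotype arrays. All 4 anti-IL-10R arrays were below the lowest isotype array, by a narrow gap, and isotype replicate 1 was far above the other controls. The mean of Ada over all arrays was 5.23, just under the limit of 5.24. Its difference was -0.48 ± 0.18 (SE, limma adjusted p = 0.27 over all genes), and -0.29 without isotype replicate 1 (adjusted p = 0.193).

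Slc29a1 encodes ENT1, a carrier that lets adenosine and other nucleosides cross the membrane along their gradient. It was 8.16, 8.45, 8.17 and 8.36 in anti-IL-10R arrays and 8.24, 8.75, 8.78 and 8.72 in isotype arrays. All 4 anti-IL-10R arrays were below isotype replicates 2, 3 and 4, and the groups overlapped through isotype replicate 1 alone. The difference was -0.34 ± 0.15 (SE, 95% confidence interval -0.67 to -0.01), which did not pass (limma adjusted p = 0.237). Without isotype replicate 1 it was -0.47 and passed (limma adjusted p = 0.027). A further row of Slc29a1, not used here because it is dimmer, had 3.90 ± 0.05 in anti-IL-10R and 4.04 ± 0.02 in isotype arrays (SD, n = 4 each) and a difference of -0.13 ± 0.09 (SE).

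Dpp4 encodes CD26, a surface peptidase of T cells, which in humans binds adenosine deaminase at the cell surface. It had a difference of 0.57 ± 0.31 (SE), as large as that of Entpd1, but with widely spread replicates. Its signal was 7.62, 8.48, 7.68 and 8.53 in anti-IL-10R arrays and 6.85, 8.16, 7.32 and 7.70 in isotype arrays. The groups overlapped, and the 95% confidence interval ran from -0.12 to 1.26 (limma adjusted p = 0.343). Without isotype replicate 1, the lowest array, the difference was 0.35, and without isotype replicate 2 it was 0.79. The SD of Dpp4 within a group was 0.49 in anti-IL-10R arrays and 0.56 in isotype arrays, against 0.13 and 0.07 for Entpd1.

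Of the channels that open on ATP, P2rx4 was measured above the limit for dim genes and P2rx7 was not. P2rx7, the receptor that needs high ATP and can drive death of mouse T cells, was 4.49, 4.63, 4.64 and 4.78 in anti-IL-10R arrays and 4.88, 5.16, 4.73 and 4.51 in isotype arrays. The groups overlapped and the difference was -0.19 ± 0.15 (SE, limma adjusted p = 0.622 over all genes), from -0.29 without isotype replicate 4 to -0.07 without isotype replicate 2. P2rx4, which responds to lower ATP, was 6.41, 6.21, 6.04 and 5.63 in anti-IL-10R arrays and 5.93, 6.84, 6.09 and 7.34 in isotype arrays. Isotype replicates 2 and 4 were high and isotype replicates 1 and 3 lay within the range of the anti-IL-10R arrays. The difference was -0.48 ± 0.31 (SE, 95% confidence interval -1.16 to 0.21, limma adjusted p = 0.423), and it was -0.69 without isotype replicate 1 and -0.22 without isotype replicate 4.

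**Figure D4:**
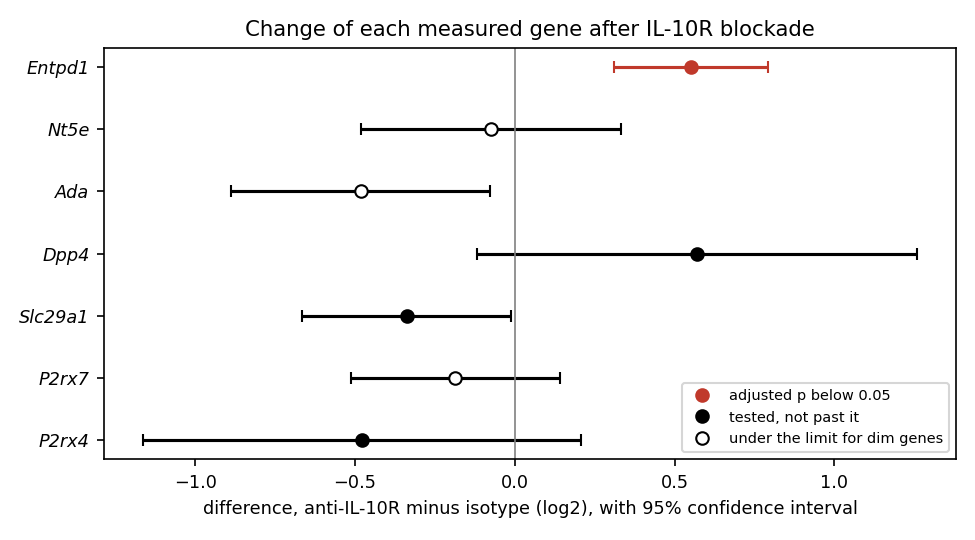
Difference of each measured gene, anti-IL-10R minus isotype in log2 units (horizontal axis), with the 95% confidence interval from limma, red for an adjusted p below 0.05, black for tested genes that did not pass and open for genes under the limit for dim genes. The interval of Entpd1 runs from 0.31 to 0.79, and that of Dpp4, with a like midpoint of 0.57, from -0.12 to 1.26.

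Within groups, the likeness of Entpd1 to the other genes of the set ran from weakly opposed to moderately parallel, as a description over 8 arrays that share their processing. After each group's mean was taken off, the Pearson correlation with Entpd1 was 0.64 for Ada, 0.55 for Nt5e, 0.10 for Dpp4, 0.03 for P2rx7, -0.02 for Slc29a1 and -0.22 for P2rx4. Ada and Nt5e, the pair with the higher values, are both under the limit for dim genes.

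The genes whose signal followed Entpd1 most closely over the 8 arrays were BE692007 (Pearson r 0.976), Pmepa1 (0.974), Samsn1 (0.974), Kcnip3 (0.969) and Ctns (0.967). They were taken from the tested genes, leaving out those with Gm-number or Rik names, microRNAs and small nucleolar RNAs. Each had groups that did not overlap. The correlation therefore includes the difference between groups, and with that difference taken off it was 0.61 to 0.88. Both values follow from the choice of the genes on these 8 arrays and are a description. Pmepa1, an inhibitor of TGF-beta signalling, had the highest value within groups. It was 5.90, 6.27, 5.90 and 6.00 in anti-IL-10R arrays and 5.60, 5.54, 5.45 and 5.61 in isotype arrays, and like Entpd1 it was highest in anti-IL-10R replicate 2. BE692007 rose by 0.59 ± 0.10 (SE, limma adjusted p = 0.0236), Kcnip3, a calcium sensor, by 0.66 ± 0.12 (adjusted p = 0.0334) and Ctns, the lysosomal cystine carrier, by 0.55 ± 0.10 (adjusted p = 0.0316). Pmepa1 and Samsn1, an adaptor protein of immune cells, differed by 0.46 ± 0.12 and 0.26 ± 0.09 and did not pass (adjusted p = 0.0676 and 0.148).

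The rest of purine signalling was followed through 83 further genes in 7 lists by role. A row was found for 74, and 51 reached the limit for dim genes. Of these, 3 were called, all higher (Sarm1, Adcy7 and Akap13), which is 1 in the NAD list and 2 in the cAMP list, beside 1.23% of all tested genes called higher. Sarm1 reached the limit for dim genes only through the anti-IL-10R arrays, and without the limit Akap13 alone stayed called (limma adjusted p 0.0727 for Sarm1 and 0.0557 for Adcy7). The median difference of the 51 was 0.01, against 0.03 over all tested genes, and 26 were higher and 25 lower. Without isotype replicate 1, 6 of the 51 passed, 5 higher and 1 lower, beside the 9.25% of all tested genes. When any one of the other 7 arrays was left out, 0 of the 51 passed limma's test. In those 7 fits only 3 to 62 of the 12019 tested genes were called, so 0 says little about these genes. An unadjusted p under 0.05 was found for 6 to 9 of the 51 there. With all arrays it was 9, beside 20% of all tested genes.

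Of the further enzymes and channels of ATP release and breakdown 0 passed limma's test (0 at an unadjusted p under 0.05). The 7 tested genes of that list had differences of -0.32 to 0.21 with a median of -0.12, and 2 were higher. Entpd6, a relative of CD39 found mainly inside the cell, had the smallest p in it, with 7.17 ± 0.17 in anti-IL-10R and 6.96 ± 0.21 in isotype arrays (SD, n = 4 each) and a difference of 0.21 ± 0.14 (SE, limma adjusted p = 0.445). Panx1, a channel through which T cells release ATP, was 10.30 ± 0.13 in anti-IL-10R and 10.18 ± 0.21 in isotype arrays. The further adenosine receptor with a row, Adora3, lay under the limit for dim genes.

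The adenosine uptake and purine salvage list held the lowest difference of all the lists, and 0 of its 15 tested genes passed limma's test (7 higher, 8 lower, median -0.04, 2 at an unadjusted p under 0.05). Adk encodes adenosine kinase, which returns adenosine to AMP inside the cell. It was 5.89, 6.38, 5.59 and 5.58 in anti-IL-10R arrays and 6.36, 7.12, 6.40 and 6.79 in isotype arrays. The groups overlapped narrowly, between anti-IL-10R replicate 2 and isotype replicate 1, and the difference was -0.81 ± 0.22 (SE, limma adjusted p = 0.0864), or -0.91 with a pass without isotype replicate 1 (adjusted p = 0.0355). Slc28a2, a sodium-driven nucleoside carrier, had a higher mean in anti-IL-10R arrays, with 9.44, 9.16, 9.50 and 9.50 in anti-IL-10R arrays and 8.39, 9.05, 8.86 and 8.93 in isotype arrays. Its groups did not overlap, and isotype replicate 1 was the lowest array. The difference was 0.60 ± 0.16 (SE, limma adjusted p = 0.0781), and 0.46 with a pass without isotype replicate 1 (adjusted p = 0.0382). The other carriers tested, Slc29a2 and Slc29a3, differed by 0.07 and -0.18.

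Receptors for nucleotides were mostly dim. Of the 5 other P2X genes 2 reached the limit, P2rx1 and P2rx5, with differences of -0.06 and -0.10. Of the 8 genes of P2Y and related receptors 2 reached it, P2ry6 (-0.07) and P2ry10 (0.20), and P2ry10 was 8.98 ± 0.30 in anti-IL-10R and 8.78 ± 0.17 in isotype arrays (SD, n = 4 each). Of these 4 genes 0 passed limma's test (0 at an unadjusted p under 0.05).

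In the NAD branch, 8 of the 12 genes reached the limit, 3 were higher and 5 lower, and Sarm1 passed in the fit with the limit. Sarm1 encodes an enzyme that cleaves NAD inside the cell, best known from degenerating axons. It was 5.61, 5.51, 5.84 and 5.76 in anti-IL-10R arrays and 4.45, 5.11, 5.20 and 4.90 in isotype arrays. All anti-IL-10R arrays were higher than any isotype array, and all 4 isotype arrays lay under the limit for dim genes, so the gene was tested only because of its signal in the anti-IL-10R arrays. The difference was 0.77 ± 0.17 (SE, limma adjusted p = 0.0491; 0.0727 without the limit), and 0.61 without isotype replicate 1. The call therefore rests on the limit, and the size is uncertain. Bst1, the relative of CD38 that encodes CD157, lay under the limit, with 4.81 ± 0.29 in anti-IL-10R and 4.84 ± 0.09 in isotype arrays (SD, n = 4 each). Nampt, the enzyme that recycles nicotinamide to NAD, differed by -0.26 ± 0.14 (SE, adjusted p = 0.33).

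The cAMP signalling list had the highest median of the lists with over 2 tested genes, 0.19 over 17 genes, with 13 higher and 4 lower. Of these 17, 6 had an unadjusted limma p under 0.05. Over all tested genes the median was 0.03, 54.7% were higher and 20% had such a p. Adcy7, an adenylyl cyclase of immune cells that makes cAMP, was 9.699, 9.698, 9.804 and 9.681 in anti-IL-10R arrays and 9.214, 9.003, 9.342 and 9.122 in isotype arrays. It rose by 0.55 ± 0.11 (SE, limma adjusted p = 0.0372; 0.0557 without the limit for dim genes). Akap13, an anchoring protein for the cAMP-dependent kinase, was 9.75, 9.78, 9.78 and 9.82 in anti-IL-10R arrays and 9.16, 9.29, 9.18 and 9.36 in isotype arrays, and rose by 0.53 ± 0.10 (adjusted p = 0.0331). For both genes the groups were far apart relative to their spread, and isotype replicate 1 lay inside the range of the other controls for Adcy7 and at its lower end for Akap13. Pde3b, which breaks cAMP down, differed by 0.54 ± 0.13 with groups that did not overlap, and did not pass (adjusted p = 0.0615; 0.03 without isotype replicate 1). Prkaca, a catalytic chain of the cAMP-dependent kinase, differed by -0.22 ± 0.11 (adjusted p = 0.293), and Crem and Creb1, transcription factors that answer to it, by 0.09 ± 0.15 and 0.19 ± 0.12 (adjusted p = 0.793 and 0.413).

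**Figure D5:**
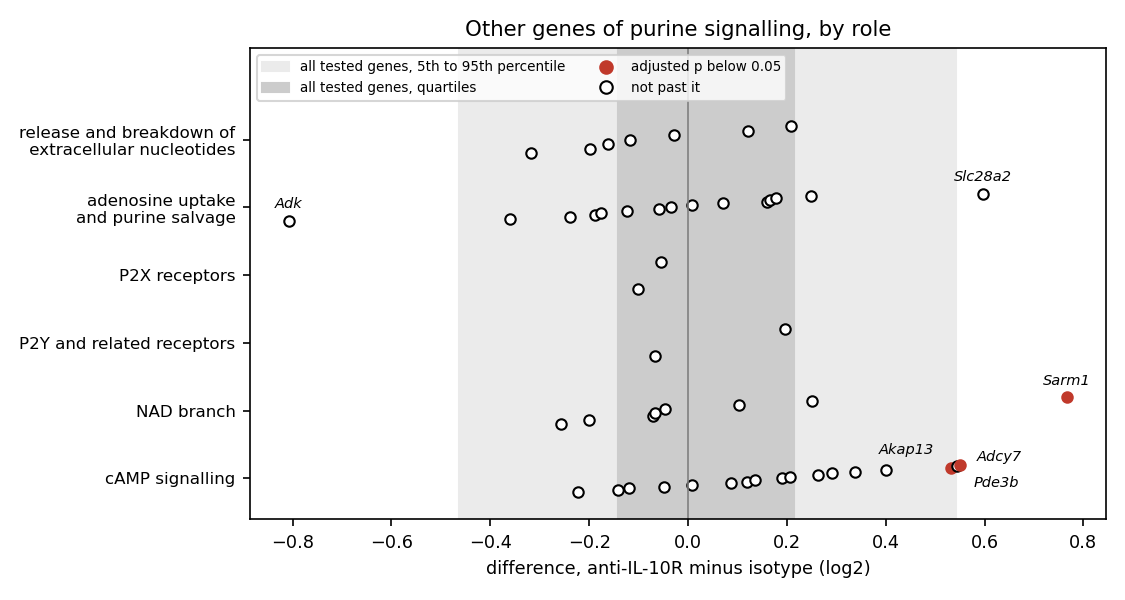
Differences of the 51 tested genes of the wider lists, anti-IL-10R minus isotype in log2 units (horizontal axis), by role, with red points for an adjusted p below 0.05 and grey bands for the quartiles and the 5th to 95th percentile of all 12019 tested genes. Sarm1, Adcy7 and Akap13 are the called genes, and Adk at -0.81 is the lowest point.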

How the data were processed

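RNA of 8 sorted samples was hybridised singly to GeneChip Mouse Gene 2.0 ST arrays, as the labels' protocols state. The authors' deposited table holds log2 signals, a scale read from its range of 1.57 to 13.89. Affymetrix Power Tools produced it, per the submitters' processing notes. Version, algorithm and normalization: not given in the sources used here. Without scanner files, detection per probe is unknown. Precision is limited by having 4 arrays a group.

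The platform annotation, checked against the RefSeq genes of GRCm38.p6 by gene identifier, gave 1 symbol for 23521 of 41345 rows, several for 1814 and none for 16010. The brightest row of a gene was kept. Positions of array rows are not given, since the array's build is not named; the promoter windows are RefSeq's. Differences come from limma 3.58.1 in R 4.3.3 (lmFit, eBayes), checked on simulated data. The set and the lists were chosen with earlier results of these data known. The genes named are the set, list genes past the threshold or else with the smallest p, and the 5 most like Entpd1; the same rule for Cd38 could not be applied. Adk, Slc29a2, Slc29a3, Pecam1, Zbtb46, Batf3, Eomes, Panx1, Bst1, Nampt, Pde3b, Prkaca, Crem, Creb1, P2rx1 and P2ry6 were chosen after their values were seen. So were Pdcd1, Zbtb7b and Xcr1. Marker lists of dendritic, endothelial, natural killer and red cells, platelets and neutrophils had 0 genes past limma's test (4 at an unadjusted p under 0.05). The labels do not say whether replicate numbers pair the arrays, and deviations of same-numbered arrays were weakly correlated over the tested genes (-0.16 to 0.12).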

Additional observations from a re-analysis of the deposited data

Results flagged for a closer look

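Slc29a1 in isotype replicate 1 was 8.24, far from the 8.72 to 8.78 of the 3 other isotype arrays, by Dixon's test for a single distant value in a group of 4. Such a test marks about 1 in 20 groups by chance, and 14 groups of values were examined. The same array stood apart across all genes, and its Foxp3 value was 7.97.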

How the results depend on the processing

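Over 20 alternatives, Entpd1 stayed higher in anti-IL-10R arrays in each. It was called after quantile normalization (0.50, limma adjusted p = 0.0458), the stricter limit for dim genes, the mean of all rows, a trended and robust variance, array weights and without isotype replicate 1. The call ended at an unchanged difference of 0.55 without the limit (adjusted p = 0.0556), over all rows of the table (0.107) and in an unmoderated unequal-variance test (0.104). The exact permutation test adjusted over all genes (0.187) could call no gene, since it would need 6868 genes with groups apart and 1840 were, and it says nothing about the call. It ended with centring of each array (difference 0.51, adjusted p = 0.0605), with the B cell marker covariate (0.57, 0.151) and with the replicate number as a block (0.55, 0.129). With 1 array left out the difference was 0.49 to 0.59. The cause was not tested.

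Slc29a1 passed with array weights (-0.46, limma adjusted p = 0.0198) and ranged from -0.47 to -0.29 with 1 array left out. Nt5e ranged from -0.21 to 0.055, turning sign without isotype replicate 4 (0.055) and anti-IL-10R replicate 1 (0.0052). Ada, Dpp4, P2rx7 and P2rx4 kept their sign and passed in no alternative.

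The count of called genes over all genes, 304 as reported, was 145 without the limit, 460 with the stricter one, 631 after quantile normalization, 117 with centring, 1469 with array weights, 3 with the B cell marker covariate, 12 over all rows, 26 in the unmoderated test and 896 at a threshold of 0.10. It was 4 with the replicate block, a fit that uses 3 more degrees of freedom, and 3 to 1112 with 1 array left out. Quantile normalization gave 204 higher and 427 lower, against 148 higher and 156 lower as reported, and centring gave 42 higher and 75 lower. In the wider lists, 3 genes as reported became 5 after quantile normalization, 1 without the limit, 6 with array weights and 0 with centring, the replicate block, the B cell marker covariate or the unmoderated test, and 0 to 6 with 1 array left out. The alternatives for the wider lists were chosen after seeing the data.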
